A study of Mus musculus with 288 samples.

Results

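The growth hormone and insulin-like growth factor (IGF) axis was followed through 10 genes, chosen by name as members of the axis, among the 35904 genes quantified: Igf1, Igf2, Ghr, Igfals, Socs2, Igfbp1, Igfbp2, Igfbp3, Igfbp4 and Igfbp5. All 10 were listed in the RNA-Seq tables of all 6 tissues. The libraries came from liver, kidney, muscle, heart, lung and cerebellum of wild type male C57BL/6J mice, 8 weeks old. Intermittent hypoxia (IH), a laboratory model of sleep apnea, repeatedly lowered inhaled oxygen from 21% to 8% for 7 days during the light phase, and control mice breathed room air (normoxia). Both groups then spent 2 days in constant darkness in normoxia, and tissues were taken on the second of those days, so the values describe the days after exposure rather than the hypoxic episodes. Each tissue and treatment held 24 libraries, 3 replicates at each of 8 clock times (1:30, 4:30, 7:30, 10:30, 13:30, 16:30, 19:30 and 22:30). Values are in TPM, a share of each library's transcripts that is corrected for transcript length. The paper reports read depth over all samples, but the depth of each library is unknown.

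Growth hormone from the pituitary binds its receptor (Ghr), which acts through the kinase JAK2 and the transcription factor STAT5. In the liver this drives Igf1, the main source of circulating IGF-1, and Igfals, the acid-labile subunit that holds IGF and a binding protein in a long-lived ternary complex in blood. Socs2 is a STAT5 target that dampens the receptor in return. The binding proteins differ in their control: Igfbp1 is acutely suppressed by insulin and raised in fasting, Igfbp2 is low when growth hormone is high, Igfbp3 forms the ternary complex, and Igfbp4 and Igfbp5 act largely within tissues. Igf2 is an imprinted fetal growth factor that stays on in the brain coverings of adult mice.

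In GRCm38 coordinates of GENCODE M21 the 10 genes, all protein-coding, fall on 6 chromosomes, and 4 of them form 2 close pairs. Igfbp1 (ENSMUSG00000020429.7, chr11:7197782-7202546, plus strand) ended 3540 bases before the lower end of Igfbp3 (ENSMUSG00000020427.11, chr11:7206086-7213923, minus strand). Igfbp2 (ENSMUSG00000039323.18, chr1:72824503-72852474, plus strand) ended 5458 bases before the lower end of Igfbp5 (ENSMUSG00000026185.8, chr1:72857932-72874884, minus strand). Igfals (ENSMUSG00000046070.9) lies at chr17:24865997-24882010 on the plus strand, Igf1 (ENSMUSG00000020053.18) at chr10:87858265-87937042 on the plus strand, and Socs2 (ENSMUSG00000020027.18) at chr10:95385362-95417180 on the minus strand. Igf2 (ENSMUSG00000048583.16) lies at chr7:142650766-142666816 on the minus strand, Igfbp4 (ENSMUSG00000017493.12) at chr11:99041244-99054392 on the plus strand and Ghr (ENSMUSG00000055737.12) at chr15:3317760-3583492 on the minus strand.

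Promoters are shown for the 3 genes on which the results below turn: Igfals and Igfbp2, the pair called in the liver, and Igfbp1, the gene with the widest daily swing. The sequences are RefSeq's, build GRCm38.p6, the 250 bases before an annotated start, 5′ to 3′ on the gene's strand, and capitals mark motif matches on either strand. RefSeq gave such windows for 9 of the 10 genes, and Socs2 had no entry. The windows are chr17:24877981-24878230 for Igfals (1 of 3 annotated starts), chr1:72824230-72824479 for Igfbp2 (1 of 2) and chr11:7197537-7197786 for Igfbp1, all on the plus strand.
Igfals: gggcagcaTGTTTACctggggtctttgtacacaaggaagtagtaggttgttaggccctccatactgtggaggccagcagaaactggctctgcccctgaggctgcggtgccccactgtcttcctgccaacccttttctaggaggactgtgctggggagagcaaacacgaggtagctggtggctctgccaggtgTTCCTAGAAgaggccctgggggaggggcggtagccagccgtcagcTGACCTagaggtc
Igfbp2: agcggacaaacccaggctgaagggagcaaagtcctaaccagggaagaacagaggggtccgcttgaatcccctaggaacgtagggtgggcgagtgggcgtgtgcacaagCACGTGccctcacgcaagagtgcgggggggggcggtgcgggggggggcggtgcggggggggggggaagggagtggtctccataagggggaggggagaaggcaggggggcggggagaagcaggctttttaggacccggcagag
Igfbp1: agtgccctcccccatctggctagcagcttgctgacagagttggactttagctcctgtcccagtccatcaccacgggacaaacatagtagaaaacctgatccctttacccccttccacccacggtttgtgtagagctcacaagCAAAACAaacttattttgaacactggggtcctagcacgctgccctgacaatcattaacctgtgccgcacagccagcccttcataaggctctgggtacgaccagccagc

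The motifs searched were CACGTG (E-box), ACGTG (core of the hypoxia response element), TTANGTAA (D-box), TTCNNNGAA (STAT site), GTAAACA (FOXO site), CAAAACA (insulin response motif) and AGGTCA (ROR and REV-ERB motif). In the Igfals window the STAT motif began 58 bases before the start, the FOXO motif 242 bases before it and the ROR motif 13 bases before it. A second annotated Igfals start had a STAT motif 236 bases upstream. The remaining Igfals window and the other Igfbp2 window held no match. The Igfbp2 window held an E-box 142 bases before the start, and the 2 overlapping matches of the hypoxia core there share its letters. The Igfbp1 window held 1 match, the insulin response motif, 108 bases before the start. Among 32817 promoter windows of the same length, 7.01% held the STAT motif, 3.16% the FOXO motif, 14.0% the ROR motif, 6.02% the E-box, 16.6% the hypoxia core, 5.56% the insulin response motif and 2.06% the D-box. For Igfals and Igfbp2 the window shown was the one with the most matches, and these shares do not allow for a choice among windows. These matches describe letters in these windows only.

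Some libraries stood apart from the rest of their tissue. In 9 libraries the median correlation with the others of the tissue was below 0.9, and the lowest, 0.69, belonged to the liver library of IH replicate 2 at 13:30, in which the predicted gene Gm19220 took 632361 TPM. The next, 0.77, was the cerebellum library of IH replicate 3 at 1:30, with Gm19220 at 452062 TPM. Both were kept in the main fits. Within liver IH replicate 2 the summed hepatocyte markers fell as low as 1567 TPM and the summed cardiomyocyte markers reached 5246 TPM. In liver IH replicates 1 and 3 the lowest hepatocyte sums were 36340 and 51726 TPM. The highest cardiomyocyte sums there were 41.3 and 33.1 TPM. The number of genes detected also differed between treatments: 22988 to 28331 in normoxia against 20316 to 22793 in IH in the heart, with no overlap, and 21746 to 25400 against 23622 to 28284 in the lung. By median summed level, the marker list of each labelled tissue was the highest of the tissue lists in that tissue, although in the cerebellum the hepatocyte list came close (3049 against 3237 TPM in normoxia), a list that holds Ttr, also known from the choroid plexus. In the liver, the 6 kidney tubule markers summed to medians of 2.83 and 4.06 TPM in normoxia replicates 1 and 2 and 109 TPM in normoxia replicate 3, against 98.3, 93.4 and 77.3 TPM in the 3 IH replicates. In bulk tissue, fewer cells of a type and less RNA per cell cannot be told apart.

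Levels of the axis separated the tissues before any exposure was considered. Igf1 was by far highest in the liver, with 383 TPM in the lowest normoxia library, a median of 449 and 521 in the highest. Muscle came next (20.2, 36.5 and 80.0 TPM). Heart, lung and kidney lay together on deposited TPM, with means of 8.04 ± 2.56, 6.88 ± 1.85 and 5.96 ± 1.59 TPM (SD, n = 24). Cerebellum was lowest at 3.17 ± 1.93 TPM. No liver library in normoxia overlapped any other tissue. Igf2 was lowest in the liver: 40.9 ± 10.4 TPM in the heart, 36.7 ± 16.8 in the cerebellum, 15.1 ± 2.39 in muscle and 6.67 ± 1.06 in the lung, with kidney at 0.55 ± 0.21 and liver at 0.38 ± 0.15 TPM.

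Ghr, the receptor, was broadly present: 425 ± 57.9 TPM in the kidney, 299 ± 35.4 in the liver, 131 ± 27.1 in muscle, 57.5 ± 10.6 in the lung, 46.3 ± 8.70 in the heart and 6.01 ± 3.09 in the cerebellum. Igfals was chiefly hepatic at 65.2 ± 9.10 TPM, with 9.73 ± 3.25 in muscle, 7.00 ± 1.63 in the kidney and means of 1.42 TPM in the heart, 1.32 in the lung and 0.26 in the cerebellum. Socs2 was highest outside the liver: 75.9 ± 11.6 TPM in the lung against 24.9 ± 6.51 in the heart and 17.7 ± 7.85 in the liver. On deposited TPM its lowest lung library (59.1 TPM) was above the highest normoxia library of any other tissue (47.2 TPM, in the heart).

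Each tissue had its own mixture of binding proteins. Of the summed TPM of Igfbp1 to Igfbp5 in normoxia, Igfbp4 made up 73.0% ± 5.79 in the kidney, 59.3% ± 4.13 in the heart and 55.8% ± 7.58 in the liver, and Igfbp2 70.6% ± 10.4 in the cerebellum and 49.1% ± 7.57 in the lung (SD, n = 24). In muscle the sum was shared by Igfbp5 (48.4% ± 4.96) and Igfbp4 (43.7% ± 5.38). Igfbp2 reached 476 ± 99.0 TPM in the liver, a median of 293 TPM in the lung and a mean of 116 ± 38.6 in the cerebellum, but 7.38 ± 1.82 in the kidney and under 1 TPM on average in heart and muscle. Igfbp3 was highest in the kidney (90.5 ± 23.0 TPM) and low in cerebellum and liver (9.67 ± 1.86 and 9.26 ± 2.46 TPM). Igfbp5 ran from 155 ± 45.5 TPM in muscle and 110 ± 20.1 in the lung to 2.00 ± 0.78 in the liver. The mean of Igfbp1 reached 1 TPM in the liver (15.1 ± 14.1 TPM) and kidney (3.39 ± 3.03 TPM) alone among the 6 tissues, and it was listed at 0 in 21 of 24 normoxia libraries of the lung.

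**Figure D1:**
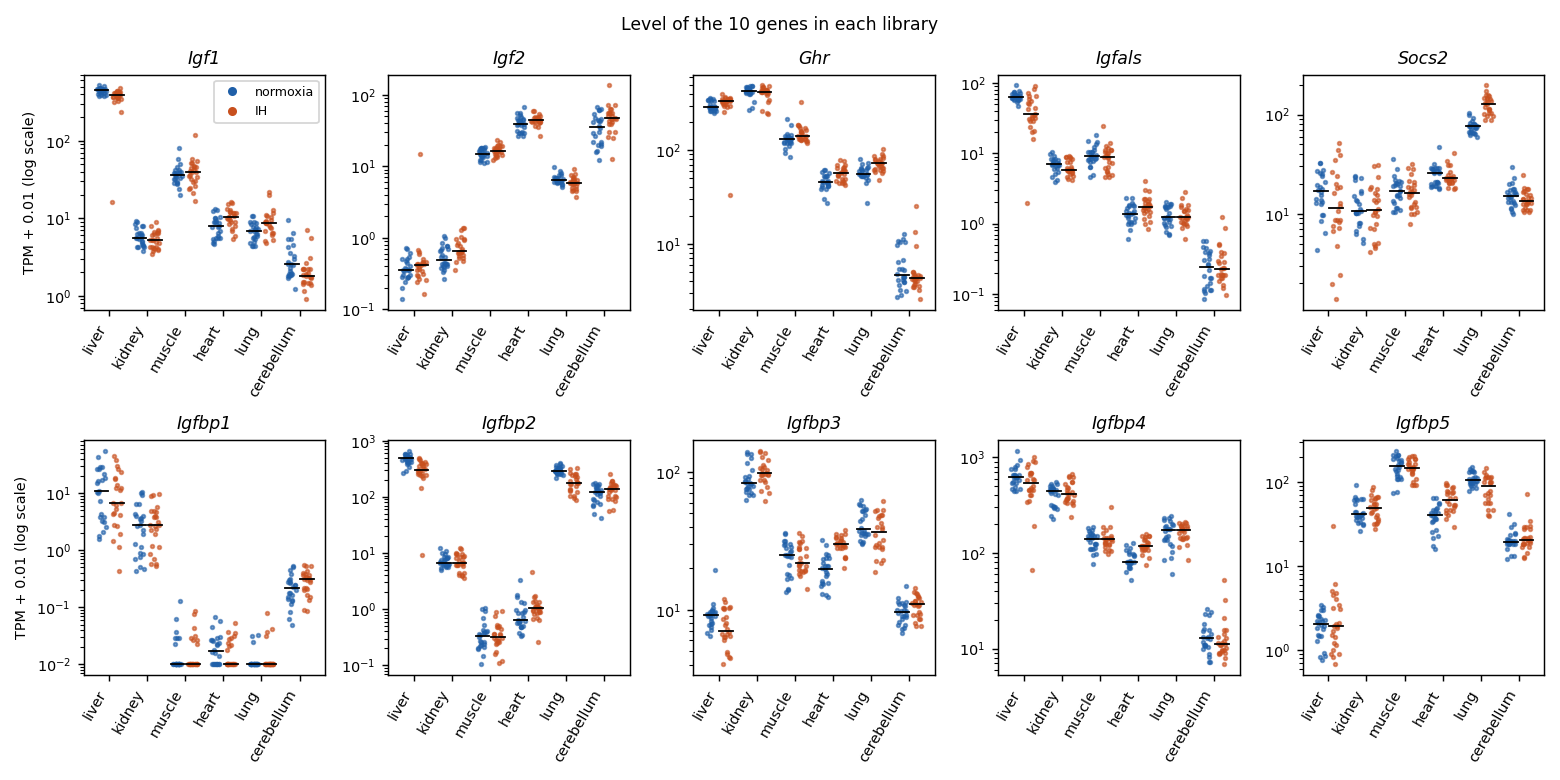
TPM plus 0.01 on a log axis for each of the 10 genes, by tissue, with 1 point per library (24 per tissue and treatment, normoxia blue, IH orange) and a bar at the median. Igf1 and Igfals stand highest in the liver, Socs2 in the lung, Igfbp3 in the kidney and Igf2 in heart and cerebellum, and the single low IH liver point is replicate 2 at 13:30.

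Neighbouring tissues in these orders were compared with limma on log2 values after a scaling shared by all 6 tissues. Of 50 neighbouring pairs, 43 differed at an adjusted p of 0.05, against 82.4% of all combinations of gene and tissue pair. In 6 of the 43 the direction was opposite to the order of the deposited TPM, so the order of those neighbours depends on the scale: lung and kidney for Igf1, kidney and liver and also lung and heart for Ghr, cerebellum and liver for Igfbp3, lung and muscle for Igfbp4, and kidney and heart for Igfbp5. The 7 pairs that did not differ were kidney and liver for Igf2, cerebellum and kidney for Socs2, lung and muscle and muscle and heart for Igfbp3, and 3 low pairs of Igfbp1. The highest and the next tissue kept their order on the joint scale for 9 genes, and for Ghr the log2 difference of kidney from liver was 0.50 on deposited TPM and -0.30 after joint scaling. The size of a difference depended on the scale too. For Socs2 the lung was above the heart by 1.61 on deposited TPM and 0.42 after joint scaling. For Igf1 the heart was above the lung by 0.19 and 1.31.

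The comparison of 24-hour mean expression asked which of these genes responded to IH in which tissue. A gene was called at a Benjamini-Hochberg adjusted p of 0.05 from limma and a change of at least 1.5-fold, on log2 of TPM, scaled by the median of ratios, plus 0.5, which understates changes of low genes. Of 60 combinations of gene and tissue, 52 had a mean of at least 1 TPM and were tested, and 4 were called, all of them decreases. The 4 were Igfals and Igfbp2 in the liver (2 of 9 tested, against 3.65% of all genes there) and Igfbp2 and Igfbp5 in the lung (2 of 9, both lower, against 4.39% of all genes called lower there and 9.09% called higher). None of the tested genes was called in the kidney (0.783% of all genes), muscle (0.374%), heart (2.95%) or cerebellum (2.64%). In all 52 the ranges of the normoxia and IH libraries overlapped. The share of all genes with overlapping ranges is not given here, so this is not read as a feature of these genes. The 8 untested combinations were Igfbp1 in muscle, heart, lung and cerebellum, Igf2 in liver and kidney, Igfals in the cerebellum and Igfbp2 in muscle.

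**Figure D2:**
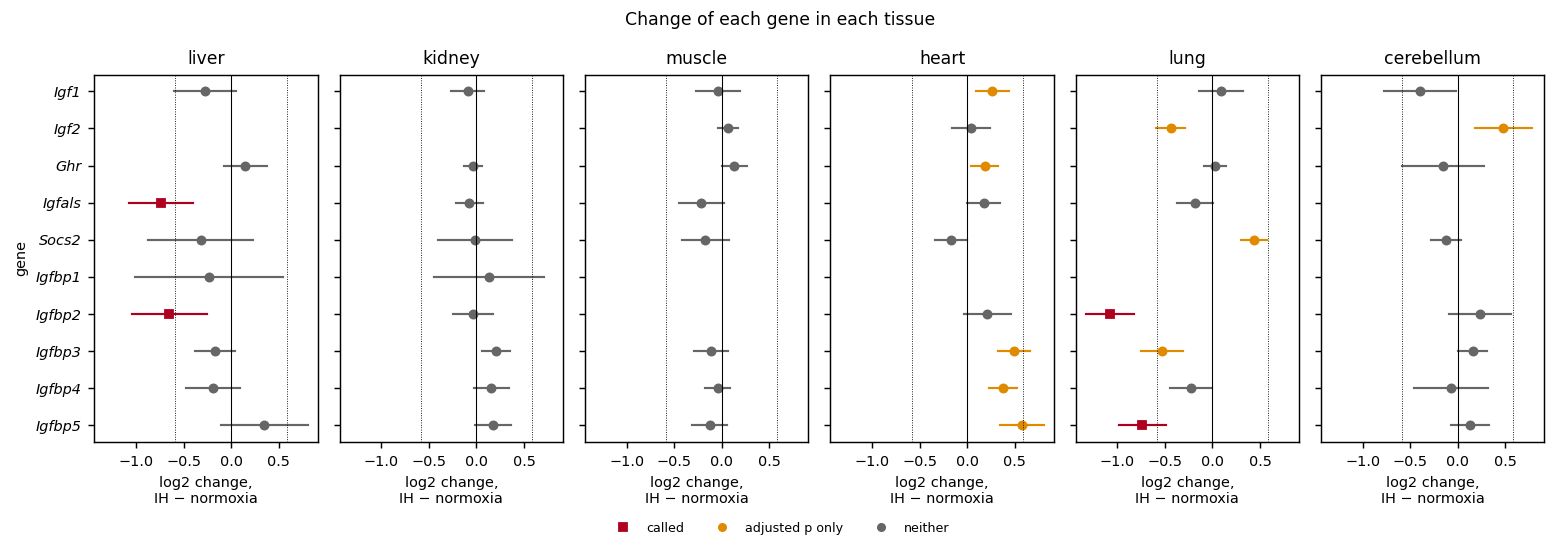
Log2 change (IH minus normoxia) of scaled expression for each gene in each tissue, with points at the estimate and bars for its 95% interval; red squares are called, orange points pass the adjusted p alone, grey points pass neither, and dotted lines mark 1.5-fold. Red squares appear for Igfals and Igfbp2 in the liver and for Igfbp2 and Igfbp5 in the lung, and orange points to the right of 0 gather in the heart.

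In the liver, Igfals ranged from 47.1 to 92.9 TPM in normoxia (median 63.9) and from 1.99 to 89.7 TPM in IH (median 35.7). The groups overlapped, but the time point mean was lower in IH at all 8 time points. Igfals fell by 0.73 ± 0.17 on the log2 scale (SE, limma adjusted p = 0.0015), a 1.66-fold decrease. The decrease lay in 2 of the 3 replicate sets. Replicates 1 and 2 in IH held 15.9 to 36.7 and 1.99 to 50.3 TPM, against 47.1 to 75.7 and 54.1 to 92.9 TPM in normoxia, with no overlap within either replicate number. Replicate 3 held 52.3 to 89.7 TPM in IH and 61.4 to 71.5 TPM in normoxia. Within replicate numbers the log2 change was -1.12, -1.21 and 0.12, and leaving out replicate 1 or replicate 2 ended the call. Over all liver genes the share called also fell, from 3.65% to 0.415% without replicate 1 and 0.644% without replicate 2. Without replicate 3 it was 13.4%. Without the IH library that stood apart the change was -0.60 (adjusted p = 7.82e-05) and Igfals was still called.

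Igfbp2, whose liver transcript is raised by fasting and low growth hormone, ranged from 267 to 669 TPM in normoxia (median 488) and from 9.06 to 484 TPM in IH (median 306). It was lower in IH at all 8 time points, the groups overlapped, and it fell by 0.65 ± 0.20 on the log2 scale (limma adjusted p = 0.015). The change was -0.58, -1.26 and -0.11 within replicates 1, 2 and 3. Without the library that stood apart, in which Igfbp2 was 9.06 TPM, it was -0.48 (adjusted p = 0.0014), below 1.5-fold, and without replicate 1 or replicate 2 the adjusted p was 0.20 in both.

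Igf1 itself was not called in the liver. Its levels were 383, 449 and 521 TPM (lowest, median, highest) in normoxia and 16.3, 392 and 473 TPM in IH, a log2 change of -0.27 ± 0.17 (95% interval -0.60 to 0.05, limma adjusted p = 0.23). The library that stood apart gave the 16.3 TPM. Without it the change was -0.12 (adjusted p = 0.24). The estimate for Ghr was above 0, at 0.15 ± 0.12 with that library and 0.25 without it (adjusted p = 0.36 and 0.0025), under 1.5-fold in both. Socs2 varied widely within each group, from 4.30 to 32.5 TPM in normoxia and from 1.37 to 51.6 TPM in IH, and its change of -0.32 ± 0.28 did not pass (adjusted p = 0.42).

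**Figure D3:**
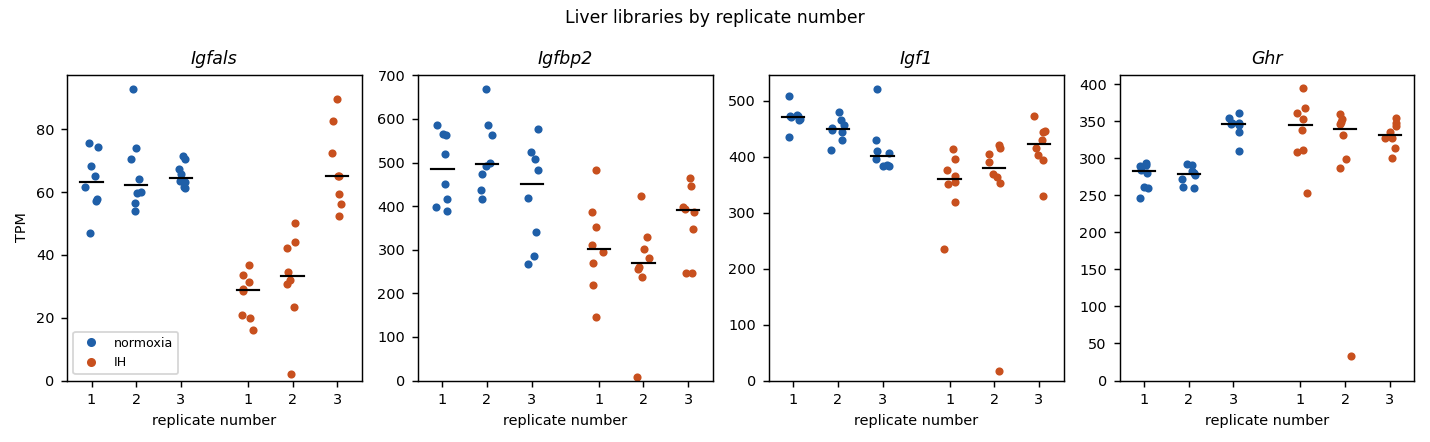
TPM of Igfals, Igfbp2, Igf1 and Ghr in liver libraries (8 per replicate number, one for each clock time; bars at the median), normoxia blue and IH orange. Igfals in IH lies at medians of 28.9 and 33.3 TPM in replicates 1 and 2 but 65.2 TPM in replicate 3, beside 62.2 to 64.6 TPM in the 3 normoxia replicates.

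Marker levels moved with these liver results, and their part was not tested. All 4 kidney tubule markers that could be tested and all 5 cardiomyocyte markers were called higher in IH (median log2 change 2.35 and 1.36), and 1 of 6 hepatocyte markers was called lower. The summed hepatocyte markers had medians of 76765, 80043 and 78179 TPM in normoxia replicates 1 to 3 and 51917, 56525 and 79431 TPM in IH replicates 1 to 3, so the IH replicate numbers with lower hepatocyte sums were those with lower Igfals. Kidney tubule sums in replicate 3 were high in both treatments (109 and 77.3 TPM).

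In the lung, Igfbp2 had the largest estimated change of the 52 tested combinations after scaling (-1.08), although on deposited TPM its -0.78 was no larger than Igfals (-0.86) and Igfbp2 (-0.78) in the liver, and with genes detected added to the fit as a term it was -0.33 against -0.77 for Igfals in the liver. It ranged from 216 to 408 TPM in normoxia (median 293) and from 86.2 to 324 TPM in IH (median 177). It was lower in IH at all 8 time points and in each replicate number (log2 changes of -1.19, -1.19 and -0.85), and fell by 1.08 ± 0.13 on the log2 scale, 2.11-fold (limma adjusted p = 5.81e-10). Igfbp5, an extracellular matrix-associated binding protein, ranged from 77.7 to 152 TPM in normoxia (median 105) and from 39.2 to 147 TPM in IH (median 89.0). Igfbp5 fell by 0.74 ± 0.12 (adjusted p = 1.07e-06). Its decrease was -1.14 and -1.06 within replicates 1 and 2 but -0.01 within replicate 3, and without replicate 1 or without replicate 2 it was no longer called.

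With the fold threshold set aside, 5 of 9 genes passed the adjusted p in the lung, against 70.4% of all genes there. The further 3 were Socs2 (0.44 ± 0.07, adjusted p = 7.27e-07), Igfbp3 (-0.53 ± 0.11, adjusted p = 4.6e-05) and Igf2 (-0.44 ± 0.08, adjusted p = 2.66e-06). Socs2 ranged from 59.1 to 105 TPM in normoxia (median 75.9) and from 87.8 to 198 TPM in IH (median 129). It was higher in IH at all 8 time points and in each replicate number. With genes detected added as a term none of these 3 passed: Socs2 was 0.18 (adjusted p = 0.15), Igfbp3 -0.01 (adjusted p = 0.94) and Igf2 -0.19 (adjusted p = 0.16). Igf1, Ghr, Igfals and Igfbp4 did not pass, with log2 changes of 0.09, 0.03, -0.18 and -0.23.

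In the heart, 5 of 9 genes passed the adjusted p, all of them higher in IH, against 45.2% of all genes, and none reached 1.5-fold. Igfbp5 came closest at 0.58 ± 0.12 (1.49-fold, adjusted p = 9.04e-05), with 16.0 to 65.1 TPM in normoxia (median 40.3) and 29.5 to 98.2 TPM in IH (median 61.9). Igfbp3 was 12.4 to 31.9 TPM in normoxia (median 19.8) and 20.2 to 37.8 TPM in IH (median 29.9), a change of 0.49 ± 0.09 (adjusted p = 1.55e-05). Igfbp4 (0.38), Igf1 (0.27) and Ghr (0.19) made up the rest. Igfbp3, Igfbp4 and Igfbp5 were higher in IH at all 8 time points, and each was higher within each of the 3 replicate numbers. For Igfbp5 the changes were 1.15, 0.24 and 0.33 within replicates 1 to 3, and without replicate 1 it was 0.29 (adjusted p = 0.076). Of the 5 genes, Igfbp3 and Igfbp4 were the 2 that passed without replicate 1. With each clock time and replicate number as a block, which pairs same-numbered libraries, 4 passed, Ghr being the exception (adjusted p = 0.051). With genes detected as a term 0 of the 9 genes passed. All 4 endothelial and 3 of 5 fibroblast markers passed the adjusted p in the same direction in the heart (median log2 change 0.46 and 0.45), with summed endothelial levels of 103 to 270 TPM in normoxia and 177 to 324 TPM in IH. Their part in the binding protein values was not tested.

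Lung and heart values depended on how libraries were made comparable. On TPM as deposited, the median change of all genes was 0.21 in the lung and 0.15 in the heart, compared with -0.08 and 0.04 after scaling. On that scale Socs2 in the lung (0.74) and Igfbp3 (0.61) and Igfbp5 (0.70) in the heart passed 1.5-fold, while Igfbp5 in the lung (-0.43) did not. With genes detected added to the fit as a term, Igfbp2 in the lung was -0.33 (adjusted p = 0.059), Igfbp5 in the lung 0.11 (adjusted p = 0.46), Igfbp5 in the heart -0.02 (adjusted p = 0.97) and Igfbp3 in the heart 0.08 (adjusted p = 0.77), and no gene of the 10 was called in either tissue. Over all genes 10.9% were called in the lung and 1.09% in the heart with that term. Igfbp4 in the lung then stood at 0.45 (adjusted p = 0.0023), against -0.23 in the main comparison. In the heart the number of genes detected did not overlap between treatments, so treatment and genes detected cannot be told apart there. In the lung, all 6 epithelial and all 4 endothelial markers passed the adjusted p as lower in IH (median log2 change -0.76 and -0.64). The summed epithelial markers had medians of 83020, 111281 and 181392 TPM in IH replicates 1 to 3, against 169402, 165927 and 176925 TPM in normoxia. For the endothelial markers these were 539, 630 and 892 TPM in IH and 1005, 867 and 759 TPM in normoxia. Both sums were thus lower in IH replicates 1 and 2 but not in replicate 3. Of the cardiomyocyte markers there, 4 of 6 passed as higher in IH (3 called, median 0.54), with summed levels of 188 to 785 TPM in normoxia and 314 to 916 TPM in IH, and 2 of 5 skeletal muscle fibre markers were called higher (median 0.74). The part of these markers in the Igfbp2 and Igfbp5 values was not tested.

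**Figure D4:**
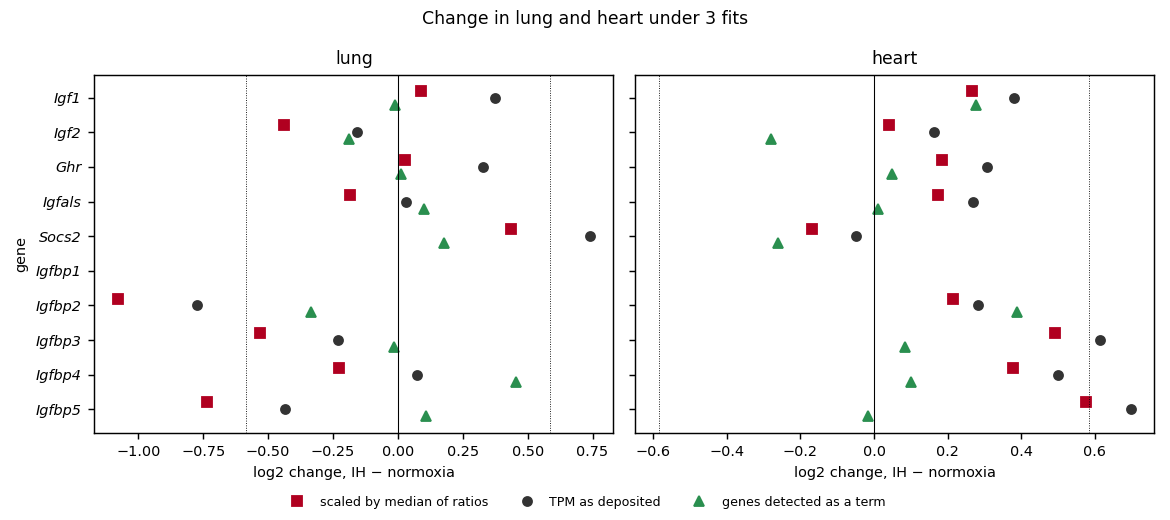
Log2 change (IH minus normoxia) of each gene in the lung and the heart under 3 fits: scaled by median of ratios (red squares), TPM as deposited (black points) and with genes detected added as a term (green triangles); dotted lines mark 1.5-fold. The 3 symbols of Igfbp5 lie at -0.74, -0.43 and 0.11 in the lung and at 0.58, 0.70 and -0.02 in the heart.

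In the cerebellum Igf2 was the 1 gene of 8 to pass the adjusted p (higher in IH, as were 9.76% of all genes, with 5.24% lower), with 12.4 to 68.0 TPM in normoxia (median 35.2) and 12.6 to 137 TPM in IH (median 47.3). Its change was 0.48 ± 0.15 (adjusted p = 0.028), it was higher in IH at all 8 time points, and the values within replicates were 0.86, 0.47 and 0.10. Without replicate 1 or replicate 2 the adjusted p was 0.49 and 0.32. On deposited TPM its change was 0.47 with an adjusted p of 0.12. Without the cerebellum library that stood apart, 2 of the 8 genes passed the adjusted p. In that fit 0 of them were called, against 5.26% of all genes. The share of all genes by adjusted p alone in that fit is not given here. The summed meningeal markers, from cells known to carry Igf2, were 51.4 to 136 TPM in normoxia and 45.3 to 223 TPM in IH in the cerebellum, with medians of 101 and 72.9 TPM and none of its 6 markers passing, and their part was not tested. Summed cardiomyocyte markers there ran from 62.2 to 2662 TPM in normoxia and from 76.3 to 6031 TPM in IH. Their medians were 645 and 380 TPM, none of the 6 passed, and their part was not tested. In the kidney 0 of 9 genes passed the adjusted p (19.8% of all genes), 1 of 9 had an unadjusted p of at most 0.05, and the closest was Igfbp3 at 0.21 ± 0.08 (adjusted p = 0.0502). Igfbp3 passed with each clock time and replicate number as a block (adjusted p = 0.0027), with time point as a term (adjusted p = 0.0016) and at a minimum of 5 TPM (adjusted p = 0.048). Igfbp4 passed in the kidney with genes detected as a term (0.26, adjusted p = 0.034), Igfbp5 without replicate 2 (0.37, adjusted p = 0.010), and Igf2 with lower minimum levels (0.27, adjusted p = 0.0071 and 0.012). In muscle 0 of 8 passed (10.4% of all genes), with no unadjusted p of at most 0.05. In the liver the same 2 of 9 genes passed with and without the fold threshold (24.2% of all genes by adjusted p alone).

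The change itself was compared between tissues by an interaction test over all libraries. The response differed between tissues for 8 of 10 genes, which is close to the 80.5% of all genes that did, and so is no particular feature of these genes. Ghr (adjusted p = 0.29) and Igfbp1 (adjusted p = 0.86) did not pass. With genes detected added as a term, an alternative chosen after seeing the data, 3 of 10 passed, against 61.8% of all genes: Igfals, Igfbp2 and Igfbp4. Pairs of tissues were compared where a gene averaged at least 1 TPM in both. Of these 117 pairs 38 differed, against 34.9% of all such pairs, and 22 of the 41 that held the lung, against 48.9%. With genes detected as a term 9 of the 117 differed, against 22.3% of all such pairs. Igfbp3 differed in 9 of 15 pairs and Igfbp2 in 6 of 10, which became 1 and 2 with that term. For Igfbp5 the heart and lung responses differed by 1.31 ± 0.20 on the log2 scale (adjusted p = 6.54e-09), and for Igfbp3 by 1.02 ± 0.13 (adjusted p = 3.07e-11). With genes detected as a term these differences were -0.12 ± 0.30 (adjusted p = 0.85) and 0.10 ± 0.21 (adjusted p = 0.83). The change of Igfals in the liver was lower than in each of kidney, muscle, heart and lung, by a difference of -0.52 ± 0.16 against muscle (the smallest) to -0.91 ± 0.16 against heart (adjusted p = 0.0089 and 1.69e-06), and all 4 differences also passed with genes detected as a term (-0.57 to -0.87). These tests treat tissues as separate samples. Yet the paper describes taking multiple tissues from the same group of mice, 3 at each time point and condition. Libraries of different tissues are thus not independent mice, and the labels do not say which libraries share a mouse.

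Other genes of the pathway were read from a list of 37, chosen by role, of which H19 is not analysed here. In the liver 4 of 28 tested were called, against 3.65% of all genes. The STAT5-dependent genes that male growth hormone pulses keep high gave 3 of the 4, each lower in IH: Cyp4a12a, a fatty acid hydroxylase (-1.34 ± 0.23, adjusted p = 2.75e-05), Cyp2d9, a steroid hydroxylase (-0.71 ± 0.20, adjusted p = 0.0068), and Cyp7b1, an oxysterol hydroxylase (-0.69 ± 0.22, adjusted p = 0.020). The other 5 members of that list of 8 were tested and not called. Igf2r, which takes up IGF-2 for degradation, was called lower at -0.61 ± 0.19 (adjusted p = 0.012). Cyp2d9, Cyp7b1 and Igf2r followed the replicate pattern of Igfals, with changes of 0.01, 0.09 and 0.17 within replicate 3, while Cyp4a12a was -1.60, -1.85 and -0.56 within replicates 1 to 3.

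In the lung 4 of 25 pathway genes were called, 3 lower and 1 higher, against 4.39% and 9.09% of all genes. Igfbp6 and Igfbp7, further binding proteins, and Htra1, a protease that cleaves binding proteins, were lower (-0.63 ± 0.13, -0.61 ± 0.13 and -0.66 ± 0.09), and the transcription factor Cux2 was higher (0.69 ± 0.08). With genes detected added as a term none of the 4 was called: Igfbp6 and Igfbp7 were 0.18 and 0.37, above 0, Htra1 was -0.02 (adjusted p = 0.83) and Cux2 0.39 (adjusted p = 0.0032), under 1.5-fold. None of the 27 pathway genes tested in the kidney or of the 22 tested in each of muscle, heart and cerebellum was called by limma, while 6, 3, 11 and 3 of them passed the adjusted p alone, against 19.8%, 10.4%, 45.2% and, in the cerebellum, 9.76% higher and 5.24% lower of all genes. Igf1r, the receptor of IGF-1 (named after its values were seen), passed the adjusted p in 3 tissues, each time higher in IH: kidney 0.49 ± 0.10, muscle 0.38 ± 0.05 and lung 0.26 ± 0.05. Within replicates 1 to 3 its changes were 0.50, 0.10 and 0.87 in the kidney, 0.19, 0.40 and 0.55 in muscle and 0.16, 0.28 and 0.32 in the lung, where it was 0.19 with genes detected as a term (adjusted p = 0.053).

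Daily rhythm was tested with a cosine of 24 hours in each tissue and treatment. The clock times are used as labelled. In normoxia 8 of 52 combinations were rhythmic at an adjusted p of 0.05, against 8.76% of all combinations of gene and tissue, and in IH 2 of 52, against 4.27%. The kidney held 4 of the 8 in normoxia (21.0% of all genes there) and both in IH (5.74%). The liver held 2 in normoxia (17.7%) and 0 in IH (2.63%), and the lung 2 in normoxia (9.15%) and 0 in IH (4.65%). No gene of the 10 was rhythmic in muscle (6.38% of all genes in normoxia and 8.83% in IH), heart (0.626% and 4.17%) or cerebellum (0% and 0.0134%).

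Igfbp1 in the kidney had the widest swing. In normoxia it averaged 8.07 ± 3.60 TPM at 4:30 and 0.46 ± 0.03 TPM at 13:30 (SD, n = 3), and in IH 6.04 ± 3.08 and 0.61 ± 0.08 TPM at those times. All 6 kidney libraries at 13:30 lay between 0.43 and 0.70 TPM, and all 6 at 4:30 between 3.87 and 10.47 TPM. The fitted peak was at 4.71 h in normoxia and 4.15 h in IH, with a peak-to-trough ratio of 5.06 and 3.38 (limma adjusted p = 0.0011 and 0.040). The liver was also low at 13:30, with 1.76 to 3.25 TPM in normoxia and 0.42 to 1.43 TPM in IH, as it was at 22:30 in normoxia (1.58 to 3.74 TPM), but other time points were scattered, from 4.36 to 42.5 TPM among the 3 normoxia libraries at 10:30, and the liver rhythm did not pass in either treatment.

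Igfbp3, the neighbour of Igfbp1 on chromosome 11, peaked close to it in the kidney, at 5.46 h in normoxia and 5.98 h in IH (adjusted p = 2.59e-05 and 0.014). Its mean ran from 119 ± 24.6 TPM at 7:30 to 70.9 ± 7.79 TPM at 16:30 in normoxia. In the lung Igfbp3 peaked in the late evening instead, at 22.2 h (adjusted p = 6.77e-05), with 54.8 ± 3.15 TPM at 22:30 and 32.5 ± 2.94 TPM at 10:30. Igfbp4 peaked near midday in both kidney (10.53 h) and liver (11.8 h), with peak-to-trough ratios of 1.68 and 1.55 (adjusted p = 0.000387 and 7.60e-05). Ghr in the kidney varied little (ratio 1.19, peak 12.9 h, adjusted p = 0.044). Socs2 in the lung peaked at 11.6 h (ratio 1.36, adjusted p = 0.0091), with 99.4 ± 5.82 TPM at 10:30 and 62.9 ± 3.58 TPM at 22:30, and Igfbp5 in the liver at 16.8 h (adjusted p = 0.028) at a mean of 2.00 TPM.

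**Figure D5:**
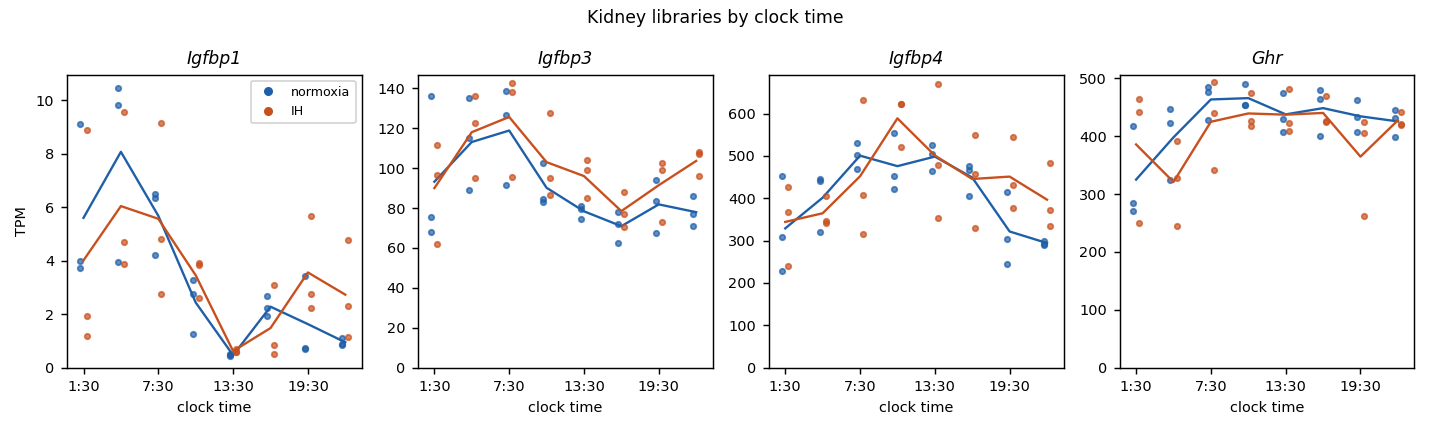
TPM of Igfbp1, Igfbp3, Igfbp4 and Ghr in kidney libraries by clock time, with 1 point per library (3 per time and treatment) and lines through the means, normoxia blue and IH orange. Igfbp1 is lowest at 13:30 in both treatments, at 0.43 to 0.70 TPM in all 6 libraries, and Igfbp4 is highest between 7:30 and 13:30.

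No rhythm passed the test of a difference between treatments. Of 52 combinations, 0 passed the test of a changed cosine in limma (lowest adjusted p = 0.83), as did 0% of the 80157 combinations of all genes. At an unadjusted p of at most 0.05 there was 1 of 52, Igf2 in the cerebellum, against 2.54% of all combinations. A rhythm found in normoxia and not in IH is therefore not shown to have changed.

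Across liver libraries 8 pairs of genes were correlated within each treatment, 16 values in all. Socs2 and Cish, both STAT5 targets that restrain the receptor, were correlated in IH: Pearson r = 0.74 and Spearman rho = 0.77 over 24 libraries (permutation test with 100000 resamples, 2-sided, adjusted p = 0.00032 and 0.00064). The correlation was 0.69 without the 2 libraries farthest from the median of Socs2 and 0.69 with time point means removed, and within replicate numbers it was 0.91, 0.50 and 0.89. In normoxia it was weaker, r = 0.52 and rho = 0.42 (permutation adjusted p = 0.035 and 0.17), and r = 0.25 without the 2 farthest libraries, so there it rests on those, although r was 0.42, 0.68 and 0.39 within replicates 1 to 3 and 0.48 with time point means removed. The difference between treatments was not tested. Ghr and Igf1 had r = 0.95 and rho = 0.68 in IH (permutation adjusted p = 0.00016 and 0.0027), and r = 0.79 over the 23 libraries without the one that stood apart. On deposited TPM the normoxia value of that pair was -0.61 and after scaling 0.11, so its sign depends on the scale.

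Igf1 and Igfals, which share growth hormone control, had r = 0.56 in normoxia (permutation adjusted p = 0.021, rho = 0.56 with adjusted p = 0.026). The value was 0.54 without the 2 farthest libraries and 0.76 with time point means removed. Within replicates 1, 2 and 3 it was -0.27, 0.34 and -0.19, so the relation did not hold within replicate numbers. On deposited TPM it was 0.09. In IH r was 0.78 (permutation adjusted p = 0.040) with rho = 0.17 (adjusted p = 0.56) and r was 0.12 without the library that stood apart, which is in replicate 2. Within replicates 1, 2 and 3 it was 0.57, 0.97 and 0.87. The other 11 values did not pass after adjustment. Socs2 had r = 0.25 with Igf1 in normoxia and -0.16 in IH, and Igfbp1 had r = -0.05 with Igfbp2 in normoxia and 0.42 in IH.

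Over the 96 means of tissue, treatment and time, each gene's pattern was compared with 18126 genes by Pearson r, as a description over points that share libraries and tissues. The closest to Igf1 were H2-Q10 (0.99), Orm1 (0.98) and Cyp27a1 (0.98), all known as liver transcripts. Igfals was closest to 1600014C10Rik, Rad23b and Gstm4 (each 0.97). Igf2 was closest to Fndc5 (0.98), Inpp5a and Cygb (0.97 each). The gene closest to Ghr was another of the 10, Igfbp4 (0.97), followed by Sqor and Mkln1 (0.97 each). Igfbp1 was closest to Hsd17b2, Gm18776 and Stra6l (0.96 each), Igfbp2 to B4galnt1 (0.98), Tgfa (0.96) and Efna3 (0.95), and Igfbp3 to Dab2, Igfbp7 and Chst7 (0.95 each). For Igfbp4 the order was Fcgr2b, Farp2 and Isoc1 (0.98 each), and for Igfbp5 Aebp1 (0.99), Abcc1 (0.97) and Pmepa1 (0.96). Socs2 had the loosest matches, Actn1 (0.89), Plcg1 (0.88) and S1pr2 (0.87).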

How the data were processed

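RNA-Seq of 6 tissues of male mice gave 24 libraries for each tissue and treatment. The authors selected poly(A) RNA, pseudoaligned reads with Kallisto to Ensembl transcripts (mm10) and deposited TPM values per gene, each library summing to 989211 to 999188 TPM; per the labels reads were checked with FastQC 0.11.3. Their DESeq2 tests used estimated counts that are not analysed here, so the depth and counting error of each library are unknown. Groups, clock times and replicate numbers came from the labels.

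For each tissue, genes averaging 1 TPM or more were scaled by the median of ratios, log2 transformed after adding 0.5 and fitted with limma 3.58.1 (R 4.3.3) with a trend prior; tests were 2-sided, with Benjamini-Hochberg adjustment over all genes tested. Genes were called at an adjusted p of 0.05 and 1.5-fold. Rhythms used cosine and sine terms of 24 hours. Correlations used 100000 permutations (scipy 1.17.1). Other steps used Python 3.11.15, numpy 2.4.6, pandas 2.3.3 and matplotlib 3.10.9. On simulated data, 93.5% to 99.5% of 200 genes changed by a log2 value of 1 were recovered, depending on the tissue. The simulation gave both treatments independent noise with the normoxia spread, without replicate sets or libraries that stand apart. Its change was also larger than most of those called here, so it does not give the power of these tests. The alternatives covered pseudocount, filter, scaling, added terms, replicate block and left-out libraries. Named genes were the 10 members, the called genes of the pathway list and the 3 genes most like each member. Igf1r was named after its values were seen, and Cish as part of a correlated pair. The members, lists and the 2 libraries left out were chosen with earlier results of these data known. The paper describes multiple tissues taken from the same group of mice, but nothing in the labels says which libraries share a mouse. The p-values therefore measure the spread between these samples, and the main tests across tissues treat tissues as independent. A gene on the pathway list is not reported here and was left out of that list's counts.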

Additional observations from a re-analysis of the deposited data

Results flagged for a closer look

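The response to IH differed between the 6 tissues, by the limma interaction test, for 8 of the 10 genes, and 80.5% of all genes did so too. The adjusted p was 2.54e-11 for Igfbp3, 1.33e-10 for Igfbp2, 1.07e-08 for Igfbp5, 3.19e-06 for Igfals, 4.15e-05 for Igf2, 0.00823 for Igfbp4, 0.0131 for Igf1 and 0.0344 for Socs2. Igfbp3 and Igfbp5 had values above 0 in the heart (0.49 and 0.58) and below 0 in the lung (-0.53 and -0.74), but with genes detected as a term Igfbp3 was 0.08 and -0.01 and Igfbp5 -0.02 and 0.11, heart first. Igfals was lowest in the liver (-0.73) and Socs2 highest in the lung (0.44). With genes detected as a term 3 of the 10 passed, Igfals, Igfbp2 and Igfbp4, against 61.8% of all genes. Between 4 and 8 genes passed when 1 replicate number was left out.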

How the results depend on the processing

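Counts of called genes in the liver (2) ranged from 0 to 2 when 1 replicate number was left out (0 without replicate 1 or without replicate 2), and were 1 without the libraries that stood apart and 1 without libraries of median correlation below 0.9, an alternative chosen after seeing the data. Over all liver genes 0.415%, 0.644% and 13.4% were called without replicates 1, 2 and 3, against 3.65% in the main fit. In each of the other 2 settings the share was 3.04%. In the heart (0) the count was 2 on deposited TPM, 5 with no fold threshold and 0 to 2 with a replicate number left out. Over all heart genes 3.82% were called on deposited TPM and 45.2% passed with no fold threshold. Without replicates 1, 2 and 3 the shares called were 2.17%, 3.85% and 3.83%. In the lung (2) the count was 0 with genes detected as a term, 5 with no fold threshold and 1 to 3 with a replicate number left out. Over all lung genes 10.9% were called with that term and 70.4% passed with no fold threshold. Without replicates 1, 2 and 3 the shares called were 13.3%, 10.3% and 21.4%. In the cerebellum (0) the count was 1 with no fold threshold and 0 to 2 with a replicate number left out. Over all cerebellum genes 9.76% passed as higher and 5.24% as lower with no fold threshold. Without replicates 1, 2 and 3 the shares called were 0.450%, 0.201% and 12.6%. Genes whose response differed between tissues (8) ranged from 4 to 8 with a replicate number left out and were 3 with genes detected as a term, an alternative chosen after seeing the data. With that term 61.8% of all genes differed. The share with a replicate number left out is not given here. Rhythms in normoxia (8) were 5 by a rank test and 4 to 6 with a replicate number left out, and in IH (2) were 1 on deposited TPM, 1 at a minimum of 5 TPM, 0 by the rank test and 0 to 1 with a replicate number left out. The shares of all genes in these rhythm settings are not given here, so the shifts are not read as particular to these genes. With genes detected as a term the log2 change turned to -0.016 for Igfbp5 in the heart, 0.45 for Igfbp4 in the lung and 0.11 for Igfbp5 in the lung. The correlation of Igf1 and Igfals turned to -0.27 and -0.19 within replicates 1 and 3 in normoxia and to -0.18 in IH without the 2 farthest libraries. The cause of these shifts was not tested. Over all settings, 97 summary values and 727 single values kept their side of the threshold or moved by less than the replicate spread. A further 26 summary values moved beyond those limits, and of the single values 39 moved, 9 came to pass, 10 no longer passed and 6 reversed.

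Same-numbered libraries of the 2 treatments had deviations correlated above 0.1 in 16 of 24 pairs in the liver, 12 in muscle, 8 in the heart, 7 in the cerebellum, 6 in the kidney and 5 in the lung. The median correlation was 0.22 in the liver and 0.10 in muscle, and from -0.14 (lung) to 0.03 (heart) in the other tissues. The main fits did not pair samples by number in any tissue, although in the liver most same-numbered libraries shared part of their deviations. As an alternative for the treatment comparison, each clock time and replicate number was a block, which pairs same-numbered libraries. The called counts then stayed at 2 in liver and lung and 0 elsewhere. Between tissues, libraries of the same treatment, clock time and replicate number were given a shared correlation. The response of 8 genes then differed between tissues, and 43 neighbouring tissues differed. In the rhythm fits the replicate number was an added term. There 12 rhythms passed in normoxia and 6 in IH, and 0 differed between treatments. The depth of each library is unknown, so no floor in reads can be given for low values such as Igfbp1 outside liver and kidney.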
